A study of Mus musculus with 16 samples.

Results

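Pressure overload was studied in the ventricles of mice that carry JP2CR, a knock-in allele of Jph2 whose product resists the protease calpain. The comparison was defined by the sample labels as 4 JP2CR libraries after transverse aortic constriction (TAC), which constricts the aortic arch so that the left ventricle ejects against a higher pressure, against 4 JP2CR libraries after sham surgery. These are 8 of the 16 libraries of the series, and all 13522 genes of the count table that passed a filter on low counts were tested, of 24421 entries. JP2CR mice were homozygous for a germline deletion of the codons for residues 563 to 568, so the sham controls lacked them too. Wildtype (WT) littermates after sham surgery or TAC, with 4 libraries each, were compared only to ask whether the TAC effect differed between the genotypes. Their libraries were also in the same fit, so they enter the filter, the scaling and the spread behind every JP2CR p-value. In all groups the mice were labelled as male C57BL/6N mice on normal chow, had surgery at 9 to 10 weeks of age, and gave ventricular tissue 5 weeks later. Polyadenylated RNA of that tissue was extracted with Trizol and sequenced as stranded libraries. No label names the animal behind a library, so every p-value below measures the spread between these libraries.

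Junctophilin-2, the product of Jph2, spans the narrow cleft between the transverse tubule, an inward fold of the heart muscle cell's surface membrane, and the sarcoplasmic reticulum, the cell's calcium store. In this cleft, the dyad, calcium that enters through L-type channels opens ryanodine receptors and so starts each contraction. Calpains are calcium-activated proteases that cut junctophilin-2 in stressed hearts, and calpastatin is their natural inhibitor. Pressure overload is known to bring back transcripts of the fetal heart, to enlarge the extracellular matrix and to lower transcripts of oxidative metabolism.

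The 18 bases removed in JP2CR encode 6 residues and are shown in capitals because they define the genotype of all 8 libraries. They lie in exon 4 of 6 of transcript Jph2-201, on the minus strand of chromosome 2, within chr2:163339518-163339577 (GRCm38), and are printed 5′ to 3′ along the coding strand:
Jph2 codons 563 to 568 with flanks: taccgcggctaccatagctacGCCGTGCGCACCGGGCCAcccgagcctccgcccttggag
Because 18 bases are in frame and few beside the length of the gene, gene-level counts of Jph2 cannot tell the genotypes apart.

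Several libraries stood apart from the others of their group. Total counts ran from 9966782 to 16609732 per library, and 3 counts, taken as the floor, corresponded to 0.185 to 0.314 CPM (counts per 1000000, relative to the library total scaled by the TMM method). JP2CR sham 3 and sham 4 had 189 and 196 CPM of Xist, the RNA that silences an X chromosome in female cells, and 0 counts of 4 Y-linked genes. Sham 3 and sham 4 thus lacked transcripts that male tissue has, although all libraries were labelled as male. JP2CR TAC 4 had 141 CPM of Xist beside a summed 118 CPM of these Y-linked genes, which had 194 to 229 CPM in the remaining 5 JP2CR libraries. Sex-linked transcripts were thus also unbalanced between the JP2CR groups, with sham 3 and sham 4 in one and TAC 4 in the other. JP2CR TAC 3 was nearer to an even mixture of TAC 1 and TAC 2 (variance over genes relative to sampling noise, 1.42) than to any single library (2.19), and 97.4% of the 193 genes that differed at least 2-fold between TAC 1 and TAC 2 lay between them in TAC 3, against 67.9% in TAC 4. WT TAC 3 had a ratio of 1.29 to the even mixture of WT TAC 1 and WT TAC 2, and 99.0% of the 192 genes apart between these lay between them in it. The share alone does not set a library apart, since it was 92.2% in WT TAC 4 and 96.6% and 94.8% of 58 genes in WT sham 3 and 4. The ventricular light chain Myl2 was high in every library (5689 to 9109.9 CPM), while the summed level of 14 atrial markers ran from 387 CPM in sham 4 to 2575 CPM in sham 3 and from 573 to 868 CPM in TAC. For this reason, counts follow both with the 3 Xist libraries left out and with these and both intermediate TAC libraries left out.

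**Figure D1:**
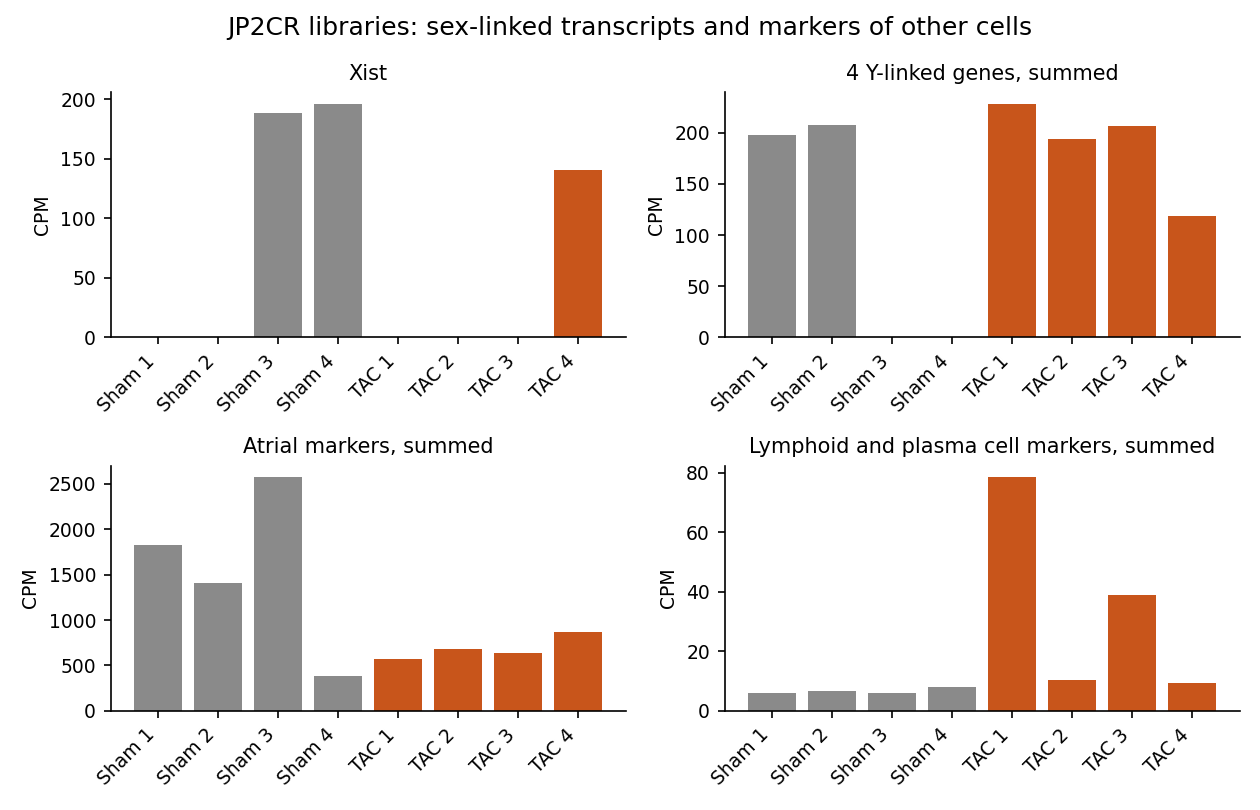
Bars show CPM in each of the 8 JP2CR libraries for Xist, 4 Y-linked genes summed, 14 atrial markers summed and the lymphoid and plasma cell markers summed (grey, sham; orange, TAC). Xist is high in sham 3, sham 4 and TAC 4, the atrial sum is lowest in sham 4, and the lymphoid sum is high in TAC 1 and TAC 3.

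TAC changed 41.5% of the genes tested in JP2CR ventricles, about equally in both directions. By edgeR's quasi-likelihood test at a Benjamini-Hochberg adjusted p under 0.05, which is what "rose", "fell" and "called" mean throughout, 2800 genes rose (20.7% of 13522) and 2805 fell (20.7%). Most of these changes were small. Of the genes that rose, 531 did so by at least 2-fold and 1652 by less than 1.5-fold, and of those that fell, 294 and 2071 did. The libraries of the groups did not overlap for 2117 and 2151 of the called genes, against 34.1% of all genes tested. Leaving out the 3 libraries with Xist, 2122 of the 2800 and 2108 of the 2805 were still called in the same comparison, and 1786 and 1720 were when all 5 libraries were left out. With only the 8 JP2CR libraries in the fit, 2305 rose and 2280 fell. In each of 19 alternative fits 1569 genes rose and 1503 fell. The median log2 fold change of all genes was -0.00421. Counts of list members below stand against the shares of all genes that rose (20.7%) and fell (20.7%).

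**Figure D2:**
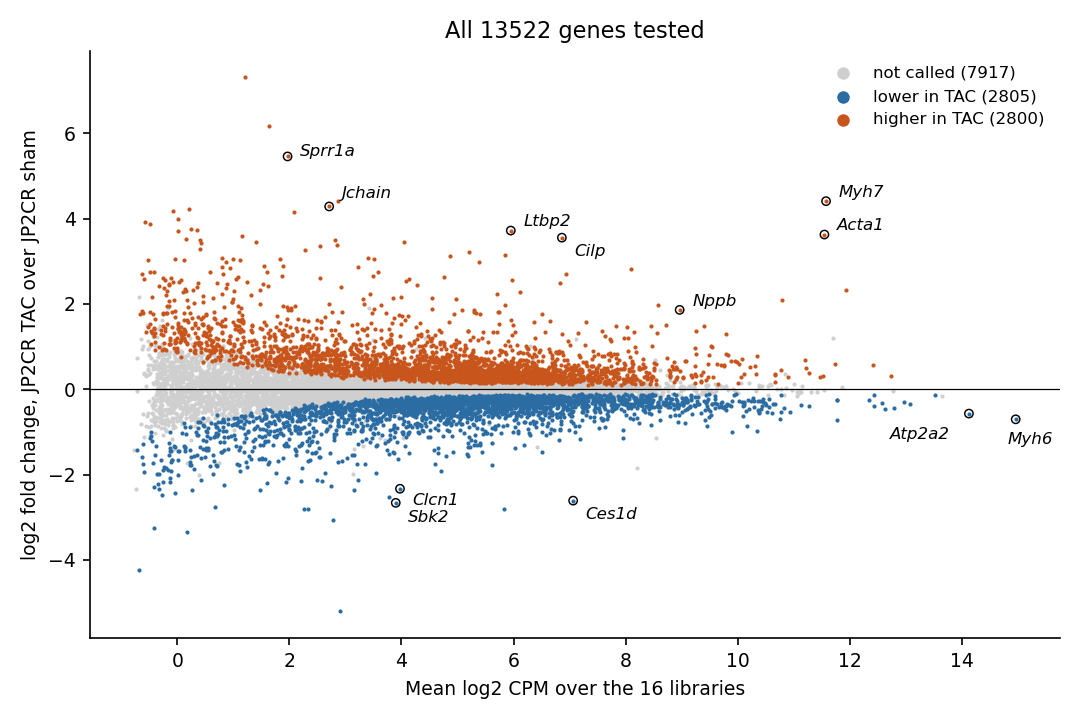
Each point is one of the 13522 genes tested, with its mean log2 CPM over 16 libraries on the x axis and its log2 fold change of JP2CR TAC over JP2CR sham on the y axis. Orange marks the 2800 genes that rose, blue the 2805 that fell and grey the rest. Sprr1a, Myh7 and Jchain lie highest among the labelled genes, and Sbk2 and Ces1d lowest.

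The genes with the largest rises, among those that averaged 1 or more in log2 CPM and whose groups did not overlap, included muscle, matrix and signalling genes. Sprr1a, a cornified envelope protein also known as a stress-induced gene of heart muscle, had 0, 0.275, 0.308 and 0 CPM in sham 1 to 4 and 5.01, 10.2, 7.18 and 6.82 CPM in TAC 1 to 4. It was at or near the floor in all sham libraries and above it in all TAC libraries, a log2 fold change of 5.46 ± 0.47 (SE; adjusted p = 1.72e-07). The serpin Serpinb1c rose by 4.15 ± 0.43 on the log2 scale and belongs to a family of near-identical genes that may share reads. Edn3, which encodes endothelin-3, rose by 3.46 ± 0.23, and the cartilage collagen chain Col9a2 by 3.60 ± 0.41. Serpinb1c and Col9a2 each had 0.0713 to 0.105 CPM in sham 1, 2 and 4, below the floor, and 0.925 and 0.617 CPM in sham 3. The size of their rises thus depended on the floor and on sham 3. It was 6.21 and 5.24 without the 3 libraries with Xist. The smallest p-values for rising genes belonged to Clic5, a chloride intracellular channel protein, with 358, 318, 345 and 324 CPM in sham 1 to 4 and 963, 998, 946 and 851 CPM in TAC 1 to 4. Its groups lay far apart and its libraries close together (1.48 ± 0.06, adjusted p = 3.24e-11). Next came the actin-binding Xin-repeat gene Xirp2 (2.08 ± 0.09), the innate immune regulator Nlrc3 (3.07 ± 0.14), the actin regulator Enah (1.19 ± 0.06), Synpo2l of the Z-disc (1.51 ± 0.07) and the metalloproteinase inhibitor Timp1 (2.74 ± 0.14), each with an adjusted p of at most 7.21e-10.

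Among the largest falls, the muscle chloride channel Clcn1 varied little within each group. Its levels were 26.2, 28.0, 25.2 and 24.1 CPM in sham 1 to 4 and 4.49, 4.60, 4.56 and 6.75 CPM in TAC 1 to 4. All TAC libraries lay far below all sham libraries, a change of -2.33 ± 0.12 (adjusted p = 3.45e-10). Larger fitted falls were seen for the collagen chain Col6a6 (-2.36 ± 0.21), Lingo3 (-2.52 ± 0.32), the carboxylesterase Ces1d (-2.61 ± 0.33) and Sbk2, a kinase gene (-2.66 ± 0.32). Ces1d stood at 21.4, 26.1 and 26.0 CPM in TAC 1 to 3 and at 87.8 CPM in TAC 4, against 220.3 to 321 CPM in sham, and it too belongs to a family whose members may share reads. The synaptotagmin Syt7 (-1.03 ± 0.06), the metalloproteinases Adamts7 (-1.19 ± 0.08) and Mmp15 (-0.86 ± 0.06), the sorting receptor Sorcs2 (-1.91 ± 0.14) and the cationic amino acid transporter Slc7a1 (-0.78 ± 0.06) were among the falling genes with the smallest p.

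Transcripts of the fetal and load response rose almost as a block. Of 20 listed genes, 18 rose and 1 fell, with a median log2 fold change of 1.44 beside -0.00421 for all genes, and 19 rose without the 3 libraries with Xist. Myh7, the slow myosin heavy chain of the fetal ventricle (chromosome 14, 54970684 to 54994626, GRCm38.p6), had 234, 235, 296 and 92.2 CPM in sham 1 to 4 and 4922, 4808, 4867 and 3655 CPM in TAC 1 to 4. Sham 4 was lowest and TAC 4 was the lowest of the TAC libraries, yet a wide gap lay between the groups. The log2 fold change was 4.41 ± 0.25 (adjusted p = 1.70e-09). The skeletal actin gene Acta1 varied more within each group, with 440.4, 208, 809.7 and 162 CPM in sham 1 to 4 and 2505, 7240.1, 5108 and 5190.4 CPM in TAC 1 to 4. TAC 1 was lowest of its group but above every sham library, and the change was 3.62 ± 0.41 (adjusted p = 2.86e-06).

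The natriuretic peptide genes, which encode hormones released by strained heart muscle, differed in how firmly they rose. Nppb had 207, 172, 269 and 125 CPM in sham 1 to 4 and 695, 808, 734 and 575 CPM in TAC 1 to 4. The groups did not overlap, and Nppb rose by 1.86 ± 0.17 (adjusted p = 2.67e-07). For its neighbour Nppa the levels were 1936, 1295, 3890.3 and 149 CPM in sham 1 to 4 and 3928, 4766, 4411 and 3533 CPM in TAC 1 to 4. Sham 3 lay within the range of the TAC libraries and sham 4 far below the other sham libraries, and Nppa did not pass the test (1.19 ± 0.52, adjusted p = 0.0736). These are the sham libraries with the highest and lowest sums of atrial markers, and Nppa is strongly expressed in atria. Without the 3 libraries with Xist the adjusted p for Nppa was 9.84e-05. The part of atrial tissue in these values was not tested.

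Structural load genes rose as well. Xirp2, which binds actin at the intercalated disc, had 616, 578, 619.7 and 461 CPM in sham 1 to 4 and 2180.2, 2859.7, 2471 and 2114 CPM in TAC 1 to 4, with no overlap and a change of 2.08 ± 0.09. The Z-disc gene Myot rose by 1.61 ± 0.13 and the cytoskeletal regulator Enah by 1.19 ± 0.06. Among 22 sarcomere genes 9 rose and 6 fell, with a median of 0.01, where 20.7% of all genes did each. Pdlim5 of the Z-disc (0.70 ± 0.06) and the giant spring protein gene Ttn (0.57 ± 0.07) rose. The inhibitory troponin gene Tnni3 (-0.73 ± 0.06), the tropomyosin gene Tpm1 (-0.34 ± 0.04) and the ventricular light chain Myl2 (-0.44 ± 0.06) fell. Myh6, the fast myosin heavy chain of the adult ventricle, had 35058, 32736, 46565 and 48839 CPM in sham 1 to 4 and 24030.1, 24425, 24063 and 27619 CPM in TAC 1 to 4. Sham 3 and sham 4 were higher than sham 1 and sham 2, and all sham libraries were above all TAC libraries (-0.70 ± 0.10, adjusted p = 2.11e-05). The size of that fall depended on these libraries, since it was -0.49 without the 3 that have Xist.

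**Figure D3:**
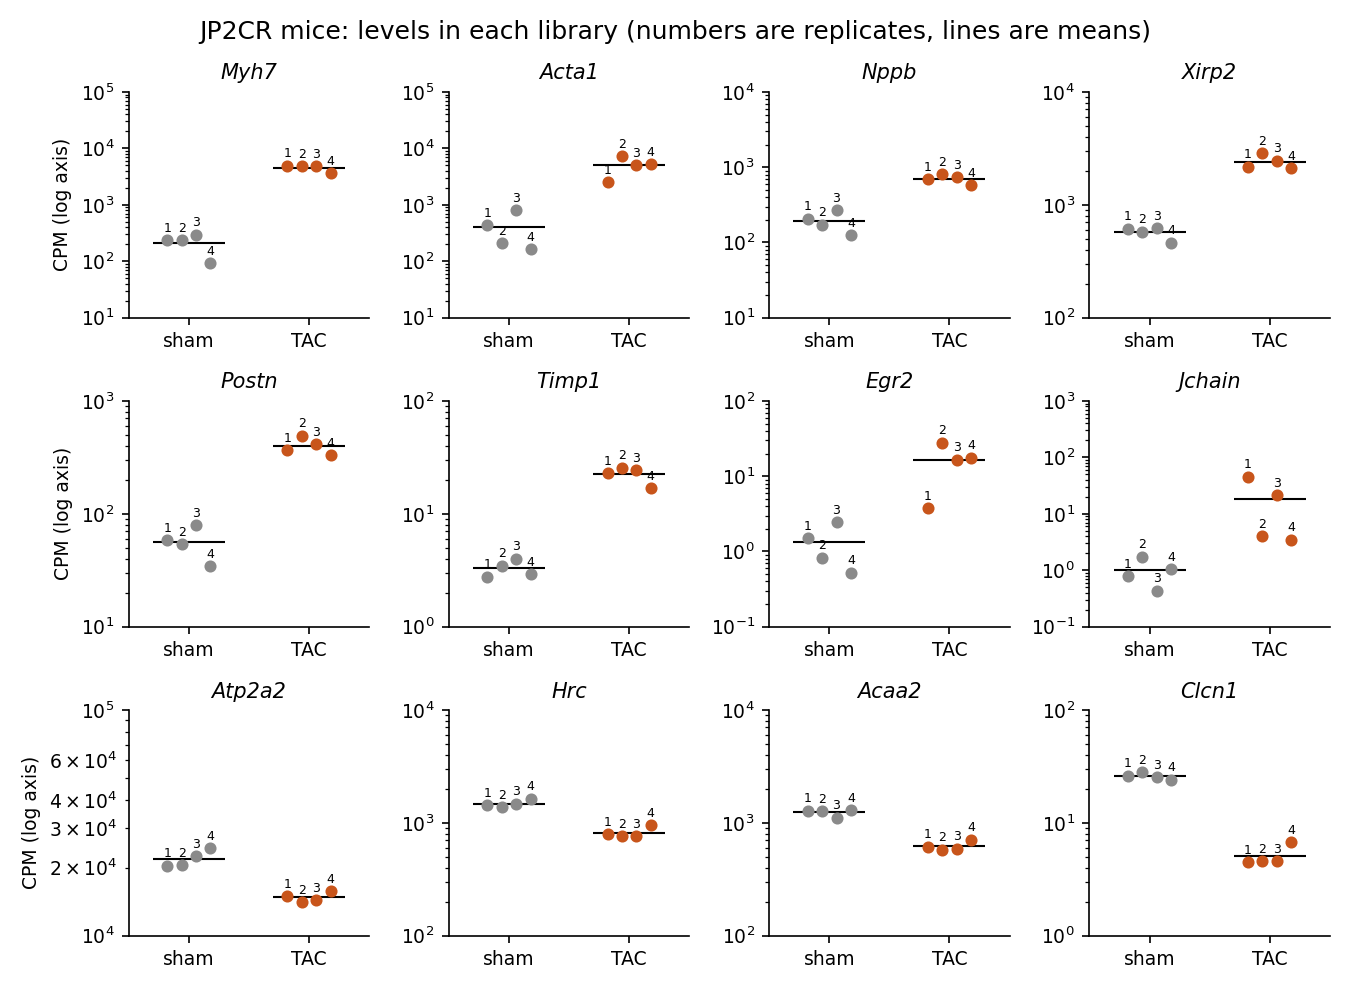
Levels in CPM on log axes for 12 genes in the JP2CR sham libraries (grey) and JP2CR TAC libraries (orange), numbered by replicate, with lines at the group means. For Egr2 and Jchain the TAC libraries are far apart from each other, while for Timp1, Hrc, Acaa2 and Clcn1 they lie close together.

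The dyad genes did not move as a group. Of 25 genes of the dyad and of calcium cycling, 8 rose and 5 fell, where 20.7% of all genes did each. The median was 0.02, and 12 were not called. Jph2 itself had 654, 612, 728 and 750.0 CPM in sham 1 to 4 and 671, 589, 634 and 630.0 CPM in TAC 1 to 4. The groups overlapped, and the log2 fold change was -0.12 ± 0.06 (adjusted p = 0.134). Jph1, the skeletal muscle junctophilin, had 27.4, 33.6, 29.5 and 33.9 CPM in sham 1 to 4 and 24.9, 24.3, 24.3 and 23.8 CPM in TAC 1 to 4, and fell by 0.35 ± 0.08 on the log2 scale with no overlap (adjusted p = 0.00153), a call that was lost without the 5 libraries (adjusted p = 0.0639). Several transcripts of the calcium store fell. The calcium pump gene Atp2a2 had 20457, 20507, 22507 and 24424 CPM in sham 1 to 4 and 15009, 14066, 14367 and 15743 CPM in TAC 1 to 4. It fell by 0.57 ± 0.06 (adjusted p = 1.07e-06), and the 4 TAC libraries were all below the lowest sham library. Hrc, which encodes a calcium-binding protein of the store, had 1432, 1373, 1476 and 1641 CPM in sham 1 to 4 and 794, 765, 762 and 949.9 CPM in TAC 1 to 4 and fell by 0.86 ± 0.07 (adjusted p = 9.28e-08). Pln, the inhibitor of the pump, changed by -0.47 ± 0.07. The membrane-trafficking gene Ehd4 (0.58 ± 0.09) and the calcium sensor S100a1 (0.27 ± 0.04) rose. The ryanodine receptor gene Ryr2, with 1846 to 2513 CPM over the 8 libraries, was not called (-0.05 ± 0.07, adjusted p = 0.659).

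Within the calpain system, the inhibitor gene Cast and the subunit gene Capn2 rose. Of 10 genes of the system, 2 rose and 2 fell, near the 20.7% of all genes called in each direction, and 1 fell without the 3 libraries with Xist. Cast, which encodes calpastatin, had 194, 194, 167 and 174 CPM in sham 1 to 4 and 235, 255, 236 and 220.0 CPM in TAC 1 to 4, so that every TAC library exceeded every sham library (0.38 ± 0.06, adjusted p = 8.27e-05). Capn2, the large subunit of m-calpain, rose by 0.26 ± 0.05, from 105 to 121 CPM in sham to 128 to 139 CPM in TAC. Capn1, the large subunit of mu-calpain, changed by -0.25 ± 0.07 and Capn15 by -0.54 ± 0.12, both lower in TAC. The groups overlapped for Capn1, and its call was lost without the 3 libraries with Xist (-0.15, adjusted p = 0.110). It was also lost without sham 3 alone (adjusted p = 0.0570). The shared small subunit gene Capns1 was not called (-0.05 ± 0.05, adjusted p = 0.373). Transcript levels do not measure protease activity, which was not measured here.

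Matrix genes gave the second block of rises, where 20.7% of all genes rose. Of 19 collagen chains 14 rose and 1 fell (median 0.67), and of 29 genes for matricellular, crosslinking and other matrix proteins 25 rose and 1 fell (median 1.26). Periostin, the matricellular protein of activated fibroblasts, is encoded by Postn, with 58.1, 53.8, 79.9 and 34.4 CPM in sham 1 to 4 and 365, 492, 414 and 329.6 CPM in TAC 1 to 4. Its lowest TAC library stood well above its highest sham library, and it rose by 2.81 ± 0.22 (adjusted p = 9.05e-08). Timp1 had 2.78, 3.48, 4.01 and 2.93 CPM in sham 1 to 4 and 22.8, 25.7, 24.3 and 16.9 CPM in TAC 1 to 4 and rose by 2.74 ± 0.14 (adjusted p = 7.21e-10). Ltbp2, a latent TGF-beta binding protein family member found in elastic fibres, had 7.56, 6.22, 10.4 and 2.41 CPM in sham 1 to 4 and 105, 96.1, 101 and 67.4 CPM in TAC 1 to 4. Its sham 4 was lowest of all libraries and its TAC 4 the lowest TAC library (3.72 ± 0.23, adjusted p = 6.63e-09).

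Fibrillar collagen genes rose by less than these. Col1a1 had 159.5, 154, 153 and 128 CPM in sham 1 to 4 and 319, 378, 366 and 299 CPM in TAC 1 to 4, a change of 1.20 ± 0.11, and Col3a1 changed by 0.98 ± 0.11. The network-forming chain Col8a1 rose by 2.71 ± 0.23, from 23.1 to 43.5 CPM in sham to 131 to 286 CPM in TAC, with TAC 1 lowest of its group. Col6a6 fell, as given above. Wisp2 (Ccn5), a CCN family gene, rose by 3.21 ± 0.18, the cartilage intermediate layer gene Cilp by 3.55 ± 0.29, the crosslinking enzyme gene Lox by 2.45 ± 0.22 and the collagen-binding gene Sparc by 1.02 ± 0.08. In the TGF-beta list 9 of 14 genes rose and 2 fell. The ligand genes Tgfb2 (1.57 ± 0.11) and Tgfb3 (0.76 ± 0.13) and the receptor gene Tgfbr1 (0.64 ± 0.07) rose, while the signal transducer Smad3 (-0.62 ± 0.09) and the latent binding protein Ltbp1 (-0.57 ± 0.06) fell.

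Markers of activated fibroblasts moved with these genes, and many are the same genes. Of 12 such markers 10 rose, and their summed level ran from 302 to 448 CPM in sham and from 793 to 1077 CPM in TAC. Acta2, smooth muscle actin, fell (-1.17 ± 0.17). General fibroblast markers were divided, with 4 of 13 higher and 4 lower. In bulk tissue, more or fewer cells of a type and more or less RNA per cell cannot be told apart, here and for every cell type below.

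Genes of mitochondrial energy metabolism fell, with few exceptions and by moderate amounts. Of 29 genes of fatty acid oxidation 23 fell and 0 rose (median -0.52). In the tricarboxylic acid cycle 17 of 18 fell (median -0.38), in the respiratory chain 37 of 38 (median -0.33), and in breakdown of branched-chain amino acids 16 of 18 (median -0.35), with 0 higher in each, where 20.7% of all genes fell. Without the 3 libraries with Xist, 23, 17, 35 and 16 fell. Markers of heart muscle cells fell in 7 of 9 cases, their sum running from 83059.8 to 105689 CPM in sham and from 64742 to 70304 CPM in TAC. The part of that shift in the metabolic lists was not tested.

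The thiolase gene Acaa2, which carries out the final step of a beta-oxidation cycle, had 1285, 1274, 1107 and 1302 CPM in sham 1 to 4 and 617, 579.5, 592 and 708 CPM in TAC 1 to 4. TAC 4 was the highest of its group and still far below the sham libraries, and Acaa2 fell by 0.99 ± 0.07 (adjusted p = 1.40e-08). Smaller falls in the list included those of Hadh (-0.73 ± 0.06), Hadha of the trifunctional protein (-0.69 ± 0.06), Eci1 (-0.71 ± 0.06) and the electron transfer flavoprotein gene Etfb (-0.78 ± 0.07). In the cycle, Sdhc (-0.61 ± 0.05) and Sdha (-0.54 ± 0.05) of succinate dehydrogenase, Suclg1 (-0.52 ± 0.04) and the citrate synthase gene Cs (-0.43 ± 0.04) fell, and Idh2, so named for that alone, was the gene not called. Respiratory chain genes included Cox7a1 (-0.77 ± 0.06) and Atp5a1 of ATP synthase (-0.39 ± 0.04), and Ndufb3 was the gene that was not called. Bckdhb, a subunit of the dehydrogenase that commits branched-chain acids to breakdown, had 63.6, 63.9, 61.4 and 64.5 CPM in sham 1 to 4 and 33.8, 32.7, 31.5 and 37.3 CPM in TAC 1 to 4. Its libraries varied little within each group, and it fell by 0.90 ± 0.06 (adjusted p = 7.31e-09).

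Genes of glucose metabolism moved in both directions. Of 21 genes 6 rose and 7 fell (median 0.06), where 20.7% of all genes did each. The number that rose was 3 without sham 2 and 9 without the 3 libraries with Xist. The platelet-type phosphofructokinase gene Pfkp rose (0.87 ± 0.07) while the muscle type Pfkm fell (-0.49 ± 0.05). The insulin-responsive glucose carrier gene Slc2a4 (-0.60 ± 0.06), the hexokinase gene Hk2 (-0.35 ± 0.04) and the lactate dehydrogenase gene Ldhb (-0.52 ± 0.05) fell. Bdh1, which oxidises the ketone body beta-hydroxybutyrate, had 127, 89.8, 268 and 191 CPM in sham 1 to 4 and 519, 391, 459 and 335 CPM in TAC 1 to 4 and rose by 1.33 ± 0.22 with no overlap (adjusted p = 0.000125), while the creatine kinase gene Ckm fell (-0.36 ± 0.05). In the list of ketone and creatine genes 2 of 10 rose and 3 fell. Of 13 transcriptional regulators of metabolism 6 fell and 1 rose, but 2 fell without the 5 libraries. The retinoid receptor gene Rxrg (-0.87 ± 0.11), Perm1 (-0.30 ± 0.06), the coactivator gene Ppargc1b (-0.34 ± 0.09), Esrra (-0.29 ± 0.08) and Ppara (-0.29 ± 0.08) fell. Without the 5 libraries Perm1, Ppargc1b and Ppara were not called (adjusted p = 0.0793, 0.0775 and 0.424).

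**Figure D4:**
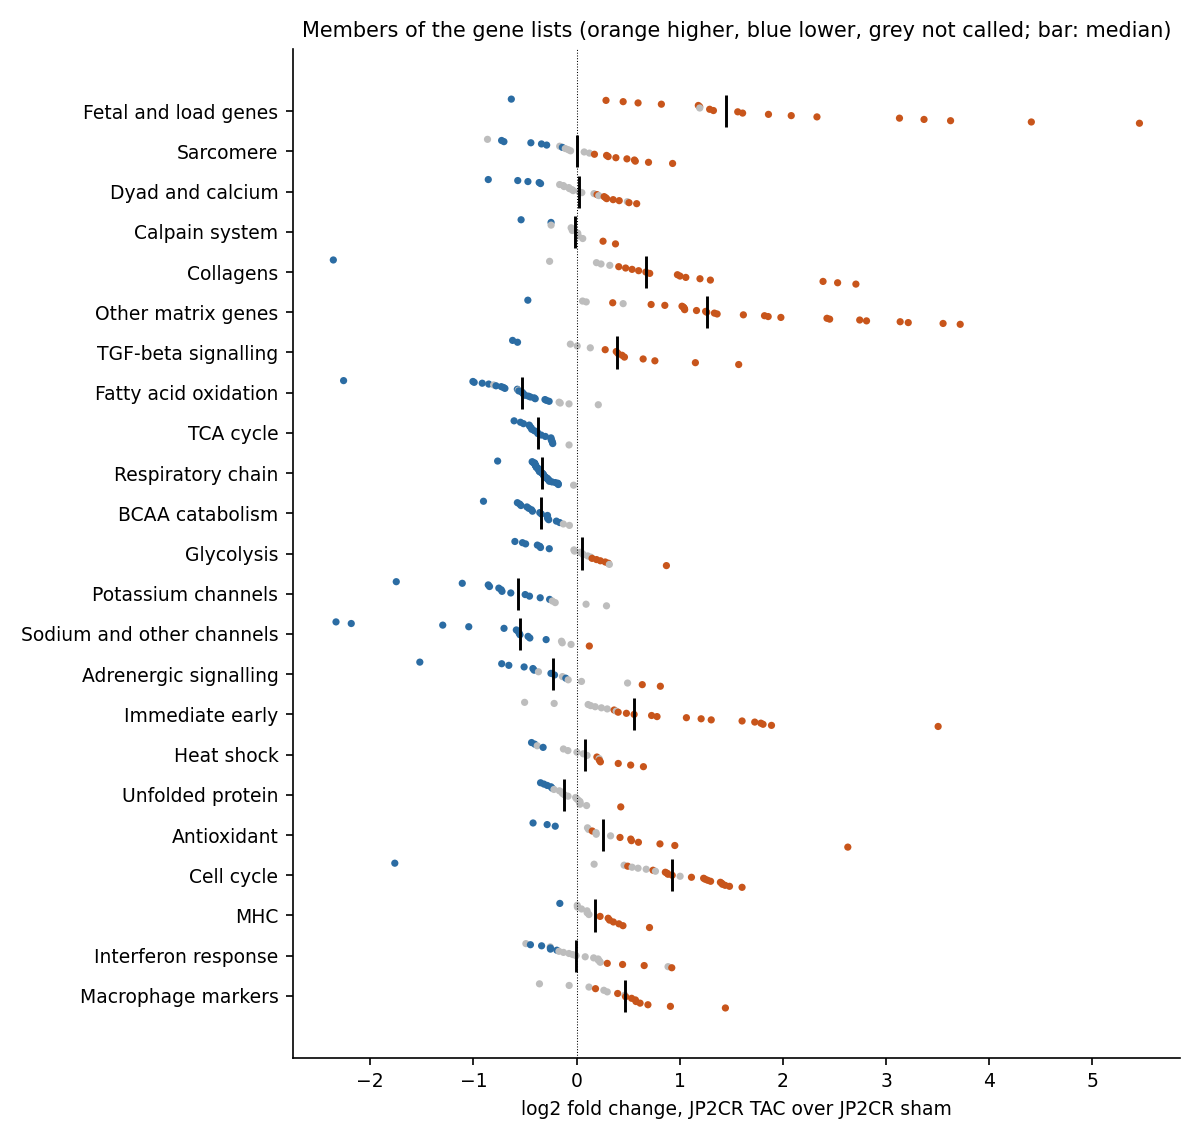
Each point is a gene of one of 23 lists, placed by its log2 fold change of JP2CR TAC over JP2CR sham, and black bars are list medians. Orange genes rose, blue genes fell and grey genes were not called. Matrix and load genes lie to the right, and oxidative metabolism and channel genes to the left.

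Most of the listed ion channel genes fell, where 20.7% of all genes did. Of 16 potassium channel genes 12 fell and 0 rose (median -0.57), with 1 higher without sham 4 or without TAC 1. Of 16 other channel and pump genes 12 fell and 1 rose (median -0.55), with 9 lower without the 3 libraries with Xist, and 0 higher without sham 1, sham 2, TAC 1, TAC 2 or TAC 3. Kcnip2, an accessory subunit of the transient outward current that repolarises the cell, had 261, 251, 230.0 and 251 CPM in sham 1 to 4 and 144, 141, 144 and 169 CPM in TAC 1 to 4. The groups did not overlap and TAC 4 was the highest TAC library (-0.73 ± 0.07, adjusted p = 4.41e-07). Its pore-forming partner Kcnd2 (-1.11 ± 0.17), the calcium-activated channel Kcnn2 (-0.84 ± 0.10), the background potassium channel Kcnk3 (-0.46 ± 0.06) and the sulphonylurea receptor Abcc9 (-0.64 ± 0.09) fell. So did the skeletal-type sodium channel Scn4a (-1.05 ± 0.14), the neuronal type Scn10a (-2.18 ± 0.28), the T-type calcium channel Cacna1h (-1.30 ± 0.20) and Trpm4 (-0.55 ± 0.08).

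Adrenergic signalling genes fell more often than they rose, 9 against 2 of 16, but the count rested on particular libraries, with 4 lower and 2 higher when the 5 libraries were left out. The alpha-1B receptor gene Adra1b had 53.0, 64.1, 27.1 and 59.1 CPM in sham 1 to 4 and 22.3, 13.6, 16.6 and 17.6 CPM in TAC 1 to 4, with no overlap and a fall of 1.52 ± 0.20 (adjusted p = 1.47e-05). The phosphodiesterase gene Pde4d (-0.66 ± 0.09) and the catalytic subunit gene of protein kinase A, Prkaca (-0.25 ± 0.05), fell. The regulatory subunit gene Prkar1a (0.81 ± 0.09) and the receptor kinase Grk5 (0.64 ± 0.12) rose. Markers of nerve and Schwann cells fell in 6 of 8 cases, and their sum ran from 35.5 to 49.3 CPM in sham and from 20.6 to 27.7 CPM in TAC. Among these Dbh, which makes noradrenaline, changed by -1.96 ± 0.30.

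Immediate early genes, which are switched on within minutes of a stimulus, rose in 15 of 23 cases and fell in 0 (median 0.56). Of all genes 20.7% rose and 20.7% fell. In WT 5 of the 23 rose and 6 fell (median -0.10), beside 21.1% and 20.8% of all genes. No difference of the effect between genotypes was called for any of the 23, the smallest adjusted p being 0.0549. Across the alternatives 12 to 17 rose and 0 fell. The zinc finger gene Egr2 had 1.50, 0.824, 2.47 and 0.523 CPM in sham 1 to 4 and 3.74, 27.9, 16.6 and 17.6 CPM in TAC 1 to 4. TAC 1 was only slightly above the highest sham library and TAC 2 was the highest (3.50 ± 0.52, adjusted p = 4.59e-05). Fos, named here after its values were seen, had 5.70, 5.58, 8.88 and 3.66 CPM in sham 1 to 4 and 3.07, 32.5, 19.4 and 26.5 CPM in TAC 1 to 4, so that TAC 1 was below all sham libraries and TAC 2 to 4 above them (1.73 ± 0.49, adjusted p = 0.00898). Its call was lost without the 3 libraries with Xist (adjusted p = 0.0565). Junb had 8.70, 10.2, 11.0 and 12.7 CPM in sham 1 to 4 and 17.9, 55.4, 40.0 and 43.5 CPM in TAC 1 to 4 and changed by 1.89 ± 0.26. TAC 1 was again lowest of its group. Myc (1.60 ± 0.14), Maff (1.06 ± 0.14) and Nr4a3 (1.79 ± 0.33) rose too, and for Myc and Maff TAC 1 was not apart from the other TAC libraries.

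Promoter sequences of the list were searched because 15 of its 23 tested genes rose. The window ran from 250 bases before to 50 bases after each RefSeq start site (GRCm38.p6). The motifs were the cyclic AMP response element TGACGTCA, which reads the same on both strands, and the CArG box bound by serum response factor, on both strands. Of the 12 called genes with a promoter in the table, 3 (25.0%) held the first and 2 (16.7%) the second. Among the 8 that were not called 0 held either. Over all 27025 genes with a promoter the shares were 2.03% and 1.81%, and over the 10264 tested genes among them 3.51% and 1.61%. The windows below hold one match for each such gene, in capitals, 5′ to 3′ along the gene's own strand:
Egr2 (chr10:67537777-67537826, plus strand, CArG box): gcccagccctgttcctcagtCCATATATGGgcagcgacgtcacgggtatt
Zfp36 (chr7:28379257-28379306, minus strand, CArG box): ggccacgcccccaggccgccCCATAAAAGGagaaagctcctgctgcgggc
Maff (chr15:79347471-79347518, plus strand, cyclic AMP response element): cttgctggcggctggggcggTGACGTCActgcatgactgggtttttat
Btg2 (chr1:134079294-134079341, minus strand, cyclic AMP response element): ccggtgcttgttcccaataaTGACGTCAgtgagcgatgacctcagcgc
Dusp1 (chr17:26508588-26508635, minus strand, cyclic AMP response element): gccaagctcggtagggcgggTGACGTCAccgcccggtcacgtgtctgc
Zfp36, Btg2 and Dusp1, chosen for these matches, encode an RNA-decay factor, an antiproliferative factor and a phosphatase of MAP kinases. Zfp36 had 24.3, 24.5, 25.0 and 30.4 CPM in sham 1 to 4 and 26.6, 81.6, 56.1 and 75.5 CPM in TAC 1 to 4, with TAC 1 inside the sham range and TAC 2 to 4 above it (1.21 ± 0.23, adjusted p = 0.000384). Btg2 changed by 0.78 ± 0.19 and Dusp1 by 0.56 ± 0.18, the latter not called without the 3 libraries with Xist (adjusted p = 0.169). A match describes the letters of the window and does not show that a factor was bound there.

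Stress and turnover lists moved in both directions, where 20.7% of all genes rose and 20.7% fell. Some of the counts below lie near these shares. Of 16 antioxidant genes 8 rose and 3 fell. The metallothionein gene Mt2 had 3.85, 2.84, 22.0 and 12.5 CPM in sham 1 to 4 and 64.4, 62.5, 67.8 and 68.6 CPM in TAC 1 to 4. Sham 1 and sham 2 were far below sham 3 and sham 4, the libraries with Xist, and all were below the TAC libraries. The change was 2.63 ± 0.37 (adjusted p = 2.55e-05), and 4.26 without the 3 libraries with Xist. The quinone reductase gene Nqo1 rose by 0.53 ± 0.05, while mitochondrial superoxide dismutase Sod2 fell (-0.42 ± 0.05). Of 16 heat shock genes 6 rose, among them Hspb6 (0.52 ± 0.08) and Hsp90aa1 (0.65 ± 0.11), and 3 fell, among them the mitochondrial chaperonin genes Hspd1 (-0.44 ± 0.06) and Hspe1 (-0.32 ± 0.07). In the unfolded protein list 5 of 19 fell, Hspa5 by 0.35 ± 0.06, and 1 rose, the sensor gene Atf6 (0.43 ± 0.07). In the list of amino acid stress and one-carbon genes 5 of 16 rose and 1 fell, with 9 and 1 without the libraries with Xist. Mthfd2 (1.05 ± 0.14) and the amino acid transporter Slc7a5 (0.88 ± 0.15) rose. Autophagy and proteolysis genes rose in 9 of 14 cases and fell in 1, with Sqstm1 (0.53 ± 0.08) and the mitophagy gene Bnip3 (0.83 ± 0.15) among the rises.

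Cell cycle genes rose in 17 of 25 cases and fell in 1 (median 0.93), where 20.7% of all genes rose. However, most of the list's calls were lost when the 3 libraries with Xist were left out. The calls were 4 and 1 without these 3, 3 and 1 without all 5, and 11 and 1 without TAC 2. The median without the 3 libraries with Xist was 0.74, in a fit with fewer libraries. In WT 22 of the 25 rose and 1 fell (median 1.22), beside 21.1% and 20.8% of all genes. Mki67, a marker of proliferating cells, had 8.20, 8.60, 3.33 and 6.69 CPM in sham 1 to 4 and 16.8, 19.6, 15.8 and 17.8 CPM in TAC 1 to 4. Sham 3 was lowest and no sham library reached the TAC libraries (1.41 ± 0.21, adjusted p = 4.42e-05), and Kif11 changed by 1.39 ± 0.22. The gene that fell was Cenpf, a kinetochore protein gene, with 35.3, 50.1, 33.3 and 47.5 CPM in sham 1 to 4 and 14.1, 7.83, 10.6 and 15.8 CPM in TAC 1 to 4 (-1.76 ± 0.18, adjusted p = 1.16e-06).

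Immune markers rose, and part of the rise lay in TAC 1 and TAC 3. TAC 3 is the library that lay near an even mixture of TAC 1 and TAC 2 (ratio 1.42). Whether its immune values are separate from those of TAC 1 was not tested. Of 16 macrophage markers 10 rose and 0 fell (median 0.47), where 20.7% of all genes rose, and 13 rose without the 3 libraries with Xist. Their sum ran from 397 to 490.5 CPM in sham and from 571 to 671 CPM in TAC. Ccr2, the chemokine receptor of recruited monocytes, had 4.21, 3.48, 2.28 and 2.93 CPM in sham 1 to 4 and 12.6, 7.10, 9.96 and 5.41 CPM in TAC 1 to 4 (1.44 ± 0.24, adjusted p = 0.000112), and complement gene C1qc changed by 0.53 ± 0.07, lysozyme gene Lyz2 by 0.58 ± 0.08 and mannose receptor gene Mrc1 by 0.62 ± 0.11. Of 14 listed lymphoid and plasma cell markers 6 were tested, and the T cell markers Cd3e, Cd3d, Cd3g and Cd8a and the B cell marker Ms4a1 did not pass the filter on low counts. A rise was called for 5 of these 6, but for 2 without TAC 1 and for 3 without TAC 3. The sum of the 6 was 5.92 to 8.05 CPM in sham and 78.4, 10.5, 38.9 and 9.36 CPM in TAC 1 to 4. Jchain, the joining chain of secreted antibodies, had 0.784, 1.74, 0.432 and 1.05 CPM in sham 1 to 4 and 45.4, 4.03, 21.2 and 3.48 CPM in TAC 1 to 4. TAC 1 and TAC 3 were far above TAC 2 and TAC 4, which were still above sham (4.28 ± 0.80, adjusted p = 0.000395), and the B cell gene Cd79a had 0.927, 0.275, 0.370 and 0.837 CPM in sham 1 to 4 and 10.8, 1.69, 4.02 and 0.802 CPM in TAC 1 to 4, with TAC 4 inside the sham range. The scavenger receptor Marco and the acute phase gene Saa3, named after their values were seen, had 21.7 and 29.3 CPM in TAC 1 and 9.04 and 12.9 CPM in TAC 3. In the other 6 JP2CR libraries Marco did not exceed 0.0807 CPM and Saa3 did not exceed 0.334 CPM, so that the groups overlapped for both, although both passed the test (adjusted p = 0.00199 and 0.00243). With limma voom neither did (adjusted p = 0.146 and 0.224).

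Antigen presentation genes rose in 7 of 14 cases and fell in 1, with 3 and 0 without the 3 libraries with Xist, 1 and 0 without all 5, and 4 and 0 without TAC 1. The class II gene H2-Eb1 had 42.4, 47.0, 35.1 and 46.5 CPM in sham 1 to 4 and 58.5, 51.4, 55.1 and 52.9 CPM in TAC 1 to 4 (0.36 ± 0.08, adjusted p = 0.00270). All TAC libraries were above the sham libraries. H2-Ab1 (0.41 ± 0.12), the peptide-loading gene H2-DMa (0.45 ± 0.11), the class II transactivator Ciita (0.71 ± 0.21) and B2m, the light chain of class I (0.23 ± 0.07), rose by small amounts. None of these 4 was called without the 5 libraries. B2m was not called without sham 2 or without TAC 2 either, and Ciita not without TAC 1. Interferon response genes rose in 4 of 23 cases and fell in 5, near the 20.7% of all genes in each direction. The number that fell was 3 without sham 4 or TAC 3 and 1 without the 5 libraries. Ifit2 rose (0.65 ± 0.07) and the GTPase gene Igtp fell (-0.45 ± 0.10), the latter not called without the 5 libraries (adjusted p = 0.134).

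Markers of other cell types moved less or unevenly. Of 13 endothelial markers 2 rose and 2 fell, below the 20.7% of all genes in each direction, with a sum of 2084 to 2262 CPM in sham and 2059 to 2240.1 CPM in TAC. Single libraries changed these counts, which were 1 and 0 without sham 1, sham 2 or TAC 2, 1 and 1 without TAC 4, 2 and 1 without sham 4, 2 and 0 without TAC 1 or TAC 3, and 4 and 2 without the 3 libraries with Xist. Of 12 genes marking pericytes and smooth muscle 2 rose and 5 fell, Myh11 of smooth muscle among the latter (-0.88 ± 0.17). Atrial markers fell in 7 of 14 cases, in 11, with 1 higher, without sham 4, in 5, with 1 higher, without TAC 1, and in 4 without TAC 2. The atrial light chain Myl7, named after its values were seen, had 529.7, 299, 803 and 0.941 CPM in sham 1 to 4 and 85.5, 103, 95.8 and 174 CPM in TAC 1 to 4, and sham 4 stood apart from all other libraries. Adipocyte markers gave 0 calls in either direction among 11 by edgeR, DESeq2 and limma voom, and 1 had an unadjusted p under 0.05 by edgeR. However, 5 were higher without sham 3, 1 without TAC 2 and 3 without the 3 libraries with Xist, and 2 were lower without TAC 4. Ucp1, which encodes the uncoupling protein found in brown fat, stood at 35.5 CPM in sham 3 and 9.02 CPM in TAC 4, and at most 0.0713 CPM in the other JP2CR libraries. Of 14 cardiac transcription factor genes 3 rose and 5 fell, with Tbx20 (0.77 ± 0.09) and Tbx5 (-1.04 ± 0.16) at the top of each direction by p.

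The TAC effect in JP2CR was compared with that in WT by a test of the difference of the effects. In WT 2848 genes rose (21.1%) and 2817 fell (20.8%), together 41.9% of those tested. Of the genes called in JP2CR 72.6% were called in WT in the same direction, and 71.9% of the genes called in WT were in JP2CR. 20 genes were called in opposite directions. The difference itself passed an adjusted p of 0.05 for 16 genes (0.118% of those tested), 12 with a higher effect in JP2CR (0.0887%) and 4 with a lower one (0.0296%), while 1395 had an unadjusted p under 0.05. The count was not stable. It was 0 and 0 without the 2 intermediate TAC libraries and with a limit of 0.01, 91 and 41 with DESeq2, and 213 and 159 without the 3 libraries with Xist. Leaving out 1 library at a time gave 2 to 93 higher and 0 to 27 lower. None of the fetal and load genes was among the 16, the smallest adjusted p being 0.0549. Their effect was higher in JP2CR for 2 of 20 genes, beside 47.8% of all genes tested. The median log2 fold change was 1.44 in JP2CR and 1.67 in WT.

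Sgk1, a kinase induced by serum and glucocorticoids, moved in opposite directions. In JP2CR it had 56.8, 53.1, 56.6 and 63.1 CPM in sham 1 to 4 and 72.4, 124, 98.7 and 109 CPM in TAC 1 to 4. In WT it had 90.0, 102, 97.6 and 95.5 CPM in sham 1 to 4 and 85.0, 67.5, 69.9 and 75.9 CPM in TAC 1 to 4. It rose in JP2CR (0.82 ± 0.12) and fell in WT (-0.37 ± 0.12), and the effects differed by 1.19 ± 0.17 (edgeR, adjusted p = 0.0128). The JP2CR sham libraries were all below the WT sham libraries. Mpc1, a subunit of the carrier that takes pyruvate into mitochondria, had 236, 216, 236 and 246 CPM in sham 1 to 4 and 255, 267, 259 and 257 CPM in TAC 1 to 4. In WT it had 288, 279, 278 and 283 CPM in sham 1 to 4 and 221, 213, 228 and 241 CPM in TAC 1 to 4. It rose slightly in JP2CR (0.15 ± 0.05) and fell in WT (-0.32 ± 0.05), a difference of 0.47 ± 0.07 (adjusted p = 0.0128). Both genes were called in 25 of 26 alternative fits, the exception being the fit without the 2 intermediate TAC libraries. The other 14 genes were called in 11 to 17 of the 26.

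For Rgs2, an inhibitor of Gq signalling, the WT effect was -1.72 ± 0.16 and the JP2CR effect -0.37 ± 0.16, the latter not called, a difference of 1.35 ± 0.22 (adjusted p = 0.0256). The matrix gene Efemp1 had the same form, with -1.52 ± 0.16 in WT, -0.21 ± 0.15 in JP2CR (not called) and a difference of 1.31 ± 0.22. H2-Eb1 and B2m rose in JP2CR and fell in WT, with differences of 0.71 ± 0.12 and 0.58 ± 0.10 (adjusted p = 0.0256 and 0.0398). The list of antigen presentation genes held 3 of the 16 genes, the third being H2-K1. The angiogenic factor Vegfa fell in JP2CR (-0.36 ± 0.07) and rose in WT (0.22 ± 0.07), a difference of -0.59 ± 0.10 (adjusted p = 0.0256). Plcd3, a phospholipase gene, fell in JP2CR (-0.49 ± 0.09) and rose in WT (0.24 ± 0.09), and Gpr157 fell in both, by more in JP2CR (difference -0.46 ± 0.08). Tnik was the remaining gene with a lower effect (-0.56 ± 0.10). The remaining genes with a higher effect, named because they make up the count, were Man2a1, Cd163, Hand2, Gdf10 and Stk17b. The 3 libraries with Xist, which enter every difference, are all JP2CR libraries (sham 3, sham 4 and TAC 4). No WT library exceeded 0.266 CPM of Xist, and all had 179 to 237 CPM of the 4 Y-linked genes. Sex-linked transcripts thus differ along with genotype in these comparisons. The part of the 3 libraries in these values is given only by the fits without them.

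**Figure D5:**
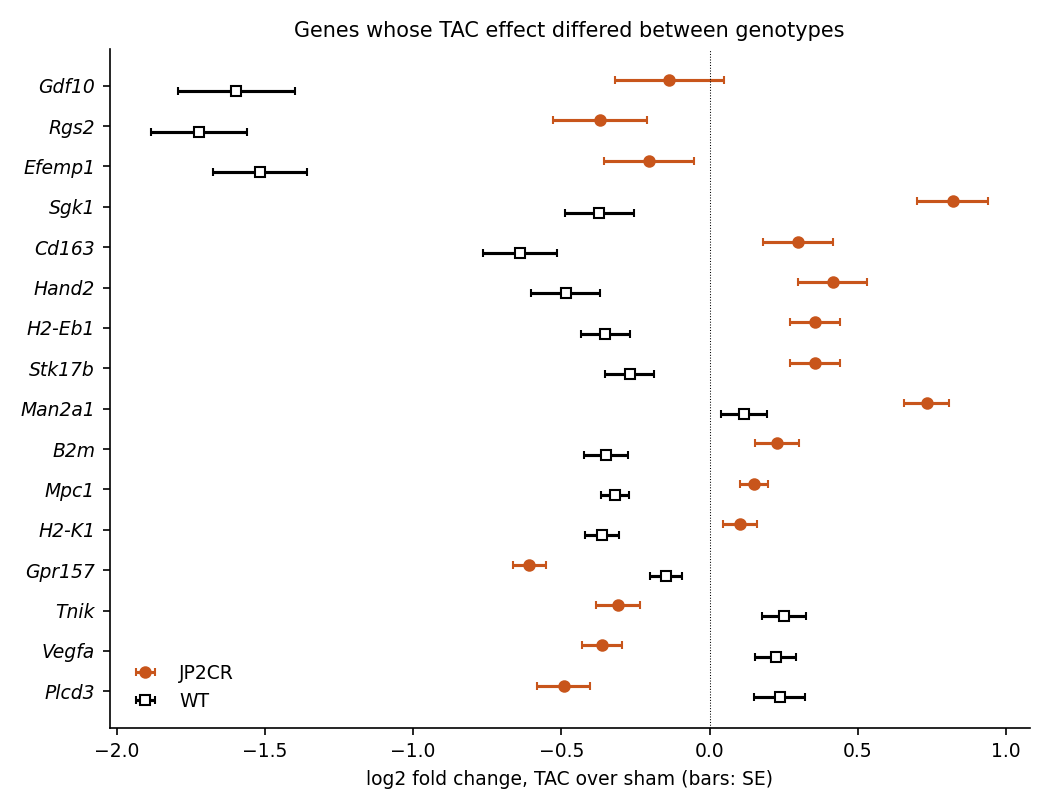
Log2 fold changes of TAC over sham (x axis, bars show SE) in JP2CR (orange circles) and WT (open squares) for the 16 genes whose effect differed between genotypes. Sgk1 lies on opposite sides of 0 in the 2 genotypes, and Rgs2, Efemp1 and Gdf10 lie near 0 in JP2CR and far below it in WT.

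Fatty acid oxidation genes were set beside their WT effects after both were seen. The WT effect was -0.63 at the median, with 27 of 29 genes lower, beside -0.52 and 23 in JP2CR, and the effect was higher in JP2CR for 25 of 29 genes, beside 47.8% of all genes tested. In the respiratory chain it was higher for 19 of 38 genes, in the tricarboxylic acid cycle for 12 of 18 and in breakdown of branched-chain amino acids for 13 of 18. Such a skew was not particular to fatty acid oxidation. The effect was higher for 14 of 14 antigen presentation genes, 14 of 14 atrial markers and 16 of 19 unfolded protein genes. It was also higher for 11 of 11 adipocyte, 8 of 8 nerve and Schwann cell and 7 of 7 mesothelial markers. In WT 9 of the 11 adipocyte markers fell (median -5.57), beside a median of -0.38 in JP2CR. Of the 14 atrial markers 12 fell in WT (median -1.86), beside 7 in JP2CR (median -1.07). Of all genes 20.8% fell in WT. The part of other tissue in the differences between genotypes was not tested. For the fetal and load genes it was higher for 2 of 20. No difference passed the test for a gene of fatty acid oxidation, the smallest adjusted p being 0.146. For Nppb the effects were 1.86 ± 0.17 in JP2CR and 2.98 ± 0.17 in WT, with an adjusted p of 0.0549 for the difference, which also missed the limit.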

How the data were processed

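Ventricular polyadenylated RNA was sequenced as stranded libraries, per the labels' protocols. Tools listed in the submitters' processing notes are FastQC 1.0.0, Picard 1.128, STAR 2.5.0b, DESeq2 1.6.3, Cufflinks 2.2.1 and bedtools 2.17.0, with mm10 as the build. How reads were assigned to genes (tool, annotation, strand) is not given in the sources used here, so overlapping, antisense or near-identical genes may share reads. The deposited table holds whole-number counts per gene symbol. Of its 24421 entries, 5817 had 0 counts in every library, 27 symbols had been turned into dates and 2 symbols were each on 2 entries. The authors' deposited table also holds the log2 fold change and adjusted p-value of each gene in this comparison. It called 2354 genes higher and 2187 lower, of which 2329 and 2175 were called here.

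The members of the comparison and the gene lists were chosen with earlier results of these data known. Counts were filtered with filterByExpr per group, scaled by TMM and fitted over all 16 libraries with 1 mean per group by edgeR 4.0.16's quasi-likelihood test (R 4.3.3), with p-values adjusted over 13522 genes. Errors beside log2 fold changes are SE, taken as the size of the change over the square root of the F statistic. Totals of 9966782 to 16609732 counts set the precision, and floors cover counting error only. Alternatives used DESeq2 1.42.0, limma 3.58.1 (voom), other scalings and filters, a replicate block, a limit of 0.01 and fits with libraries left out. Same-numbered JP2CR sham and TAC libraries did not deviate together, so the numbers were not taken as pairs.

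Genes were named by a rule. It took Xist, the junctophilin, calpain and calpastatin genes Jph1, Jph2, Capn1, Capn2 and Cast, the calcium genes Ryr2 and Atp2a2, and the load genes Acta1, Myh6, Myh7, Nppa and Nppb. It took the 12 highest and 12 lowest log2 fold changes and the 10 smallest p in each direction, among genes that averaged 1 or more in log2 CPM, with groups that did not overlap and no predicted-gene symbol. It also took up to 5 members of each list by p and the 5 smallest p in each direction of the difference from WT. The text names part of these, and some results are not reported here. Btg2, Cd163, Dusp1, Fos, Gdf10, H2-K1, Hand2, Idh2, Man2a1, Marco, Myl7, Ndufb3, Saa3, Stk17b and Zfp36 fall outside the rule and were chosen after their values were seen. Of 682 list entries 677 matched a symbol, 4 of them by an older one, and 651 were tested. Gene positions and promoters are from RefSeq (GRCm38.p6).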

Additional observations from a re-analysis of the deposited data

Results flagged for a closer look

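In 27 of 318 groups of 4 libraries, over 159 genes looked at in JP2CR sham and JP2CR TAC, one library lay apart by Dixon's criterion. Chance alone marks about 1 in 20 groups. TAC 4 was that library in 10 cases, sham 3 in 8 and sham 4 in 4, and these are the libraries with Xist. The other 5 cases were in TAC 2, TAC 1, TAC 3 and sham 1. No cause was tested.

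In TAC 4, the fast and slow myosin genes lay apart, with 27619 CPM of Myh6 where the other TAC libraries had 24030.1 to 24425, and 3655 CPM of Myh7 where they had 4808 to 4922. The calcium store gene Hrc stood at 949.9 CPM (others 762 to 794), the beta-oxidation gene Hadha at 1445 CPM (others 1241 to 1271) and the channel subunit Kcnip2 at 169 CPM (others 141 to 144). Each of these 5 genes was closer to the sham level in TAC 4 than in TAC 1 to 3. Clcn1 had 6.75 CPM (others 4.49 to 4.60), Ces1d 87.8 CPM (others 21.4 to 26.1), Prkar1a 935 CPM (others 1124 to 1161) and Sqstm1 596 CPM (others 560.4 to 563). Ucp1 had 9.02 CPM in TAC 4 and 0 in the other TAC libraries.

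Sham 3 had 35.5 CPM of Ucp1, where the other sham libraries had at most 0.0713 CPM. Its levels of Acaa2 (1107 CPM, others 1274 to 1302) and Kcnd2 (18.1 CPM, others 32.1 to 32.9) were low. Those of Btg2 (79.9 CPM, others 43.6 to 45.4), Ces1d (321 CPM, others 220.3 to 229), Myot (68.3 CPM, others 42.7 to 45.3), Col9a2 (0.617 CPM, others 0.0713 to 0.105) and Serpinb1c (0.925 CPM, others 0.0713 to 0.105) were high. Sham 4 was high for Etfb (776 CPM, others 661 to 672), Hand2 (44.0 CPM, others 30.8 to 32.4), Rgs2 (51.0 CPM, others 33.1 to 33.8) and Zfp36 (30.4 CPM, others 24.3 to 25.0). Sham 1 was low for Pde4d (52.3 CPM, others 60.9 to 61.3). TAC 2 was low for Esrra (133 CPM, others 164 to 169) and H2-K1 (187 CPM, others 205 to 209), TAC 1 was low for Gpr157 (65.3 CPM, others 71.1 to 71.3), and TAC 3 was high for Gdf10 (4.63 CPM, others 3.44 to 3.63).

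The TAC effect differed between the genotypes for 16 genes by edgeR's test of the difference. The largest differences, JP2CR effect minus WT effect on the log2 scale, were those of Gdf10 (1.46), a secreted factor of the TGF-beta family, Rgs2 (1.35), Efemp1 (1.31) and Sgk1 (1.19). Gdf10 fell in WT (-1.60 ± 0.20) and was not called in JP2CR (-0.14 ± 0.18). The transcription factor gene Hand2 rose in JP2CR (0.41 ± 0.12) and fell in WT (-0.49 ± 0.12), a difference of 0.90. The macrophage scavenger receptor gene Cd163 fell in WT (-0.64 ± 0.12) and was not called in JP2CR (0.30 ± 0.12), a difference of 0.94. Antigen presentation genes with a higher effect in JP2CR were H2-Eb1 (0.71), B2m (0.58) and H2-K1 (0.465). Others were Stk17b (0.63), the Golgi mannosidase gene Man2a1 (0.62) and Mpc1 (0.47). Lower effects belonged to Plcd3 (-0.73), Vegfa (-0.59), the kinase gene Tnik (-0.56) and Gpr157 (-0.46).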

How the results depend on the processing

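In JP2CR 2434 to 2808 genes rose and 2410 to 2721 fell as single libraries were left out, and 1921 to 2903 and 1904 to 2952 under the other alternatives. The WT counts stayed within 1.5 times of 2848 and 2817 under every alternative run. Over the named genes, 3206 of 3433 values kept their direction and side of the threshold, 203 fell short of it, 24 newly passed it, and 0 changed sign where either fit called the gene. Another 6 values, of Capns1, Ndufb3, Ryr2 and Ucp1, changed sign with no call in either fit.

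The difference between genotypes, 12 genes with a higher effect in JP2CR and 4 with a lower one, depended on the setting. It gave 91 and 41 with DESeq2, 29 and 10 with no filter, 213 and 159 without the 3 libraries with Xist, and 42 and 17 without these and the 2 intermediate TAC libraries. By edgeR it gave 0 and 0 both without the intermediate libraries alone and at a limit of 0.01, where 1395 genes had an unadjusted p under 0.05 in the full fit. Leaving out 1 library gave 2 to 93 higher and 0 to 27 lower. The counts were 93 and 27 without JP2CR sham 3, 51 and 13 without JP2CR TAC 1, 38 and 15 without JP2CR sham 4, and 27 and 19 without WT TAC 1. They were 2 and 0 without JP2CR sham 1, JP2CR TAC 3 or 4, WT sham 3 or 4, or WT TAC 2 or 3, 4 and 0 without JP2CR sham 2, and 8 and 2 without WT sham 1. The cause was not tested.

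With the replicate number as a block, the difference gave 7 and 2 genes, and the JP2CR comparison 2770 higher and 2720 lower. Same-numbered sham and TAC libraries of JP2CR deviated with r = -0.0612 to 0.0718 over 4 pairs, so the labels' numbers were not treated as pairs. Low counts limit genes near the floor, such as Sprr1a, Serpinb1c and Col9a2 in sham.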
